A study of Mus musculus with 59 samples.

Results

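The genes described here encode voltage-gated sodium channels (Nav), voltage-gated calcium channels (Cav), hyperpolarization-activated channels (HCN) and transient receptor potential channels (TRP). They were chosen by name: every gene of the count table whose Ensembl ID maps to a mouse symbol starting with Scn, Cacna, Cacnb, Cacng, Hcn, Trpa, Trpc, Trpm or Trpv followed by the number of the subunit. The rule found 68 of 21935 genes. Of these, 55 passed the filter on low counts in the fit of all libraries, and 13 did not. A pair of matching genes are not channels: Trpc4ap encodes a protein that associates with TRPC channels, and Trpc5os is a transcript opposite Trpc5.

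C57BL/6 mice, with no other genotype, age or diet in their labels, received an intraperitoneal injection of vehicle or IP118/PY115, and tissue was taken 4 h after it. Per its title, the series studies combined action at the receptors of PYY and GLP-1 in obese and diabetic mice. From sections of 10 µm, 4 mm2 per animal was laser-captured from each of the paraventricular nucleus (PVN) and arcuate nucleus (ARC) of the hypothalamus and, in the hindbrain, from the solitary tract nucleus (NTS). Polyadenylated RNA was sequenced in 10 vehicle and 10 IP118/PY115 libraries of PVN, 9 and 10 of ARC, and 10 and 10 of NTS, with 3964093 to 28510118 counts per library.

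Nav channels carry the rising phase of the action potential through a pore-forming alpha subunit that is modulated by beta subunits. Cav channels admit calcium on depolarization; their alpha1 subunit forms the pore, alpha2delta and beta subunits control trafficking and gating, and most brain gamma subunits serve AMPA receptors. HCN channels open on hyperpolarization, are modulated by cyclic AMP and shape rhythm and resting excitability, while TRP channels are cation channels opened by lipids, temperature, receptor signalling or chemicals. In the arcuate nucleus TRPC channels are known as effectors of leptin in Pomc neurons.

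Levels are given as CPM, counts scaled to a common library size. The samples matched their regions by defining transcripts. The summed level of Agrp, Pomc, Npy and Ghrh was 2171 to 3527 CPM in ARC vehicle libraries, 6.87 to 25.5 CPM in PVN and 27.1 to 38 CPM in NTS. Avp, Oxt, Sim1, Crh and Trh summed to 8646 to 21275 CPM in PVN vehicle libraries, with up to 473 CPM in an ARC vehicle library. Libraries are numbered within a group in the order of deposit, which pairs nothing. Those numbered 1 went against their treatment labels on a response gene that is no channel: Cdkn1a stood at 56.6 CPM in the library labelled NTS vehicle 1, where the remaining vehicle libraries held 7.51 to 17.6 CPM. It stood at 9 CPM in the library labelled NTS IP118/PY115 1, where the remaining ones held 36.8 to 68.2 CPM, and the same exchange was present in PVN and ARC. All libraries were kept under their labels. The counts of treatment calls, Hcn4 in PVN and ARC and Cacng5 in ARC are given with and without the libraries numbered 1. All other treatment values include these libraries under their labels. Libraries of different regions come from shared animals that the labels do not identify, so p-values between regions treat them as independent. No label says that libraries of 1 group came from separate animals, and p-values measure the spread between these libraries. The titles number NTS libraries 5726 to 5745, apart from those of PVN and ARC, at 5465 to 5557. What these numbers stand for is not labelled, so region and number cannot be told apart for NTS. Numbers 5553 to 5557 are vehicle libraries only, 3 of PVN and 2 of ARC.

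The sequences upstream of 4 members are shown because each stands for a regional pattern described later: Hcn2 and Scn11a were highest in NTS, Trpc6 in ARC and Trpc5 in PVN. Each is the 250 bases before the gene's start in RefSeq on GRCm38.p6, 5′ to 3′ on the gene's strand. The motifs searched, on both strands with overlaps allowed, were the GC box GGGCGG, the TATA box TATAAA, the CCAAT box, the cyclic AMP element core TGACG, the Pbx and Hox motif TGATNNAT and the E-box CACGTG. Capitals mark the bases of a match.
Hcn2, chr10:79716384-79716633, plus strand: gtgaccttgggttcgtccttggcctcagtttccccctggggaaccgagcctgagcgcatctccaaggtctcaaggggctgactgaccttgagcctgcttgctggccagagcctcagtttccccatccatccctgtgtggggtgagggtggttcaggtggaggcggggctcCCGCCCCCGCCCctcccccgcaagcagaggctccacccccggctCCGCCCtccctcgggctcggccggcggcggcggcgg
Scn11a, chr9:119825457-119825706, minus strand: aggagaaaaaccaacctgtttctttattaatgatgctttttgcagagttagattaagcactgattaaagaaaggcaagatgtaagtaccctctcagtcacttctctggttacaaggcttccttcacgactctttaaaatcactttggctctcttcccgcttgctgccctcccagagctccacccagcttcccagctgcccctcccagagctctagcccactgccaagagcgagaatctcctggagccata
Trpc6, chr9:8543892-8544141, plus strand: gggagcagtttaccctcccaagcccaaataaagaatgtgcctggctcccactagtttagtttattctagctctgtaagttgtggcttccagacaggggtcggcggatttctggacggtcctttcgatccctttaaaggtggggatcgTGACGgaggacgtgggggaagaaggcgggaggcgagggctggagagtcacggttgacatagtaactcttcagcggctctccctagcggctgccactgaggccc
Trpc5, chrX:144688181-144688430, minus strand: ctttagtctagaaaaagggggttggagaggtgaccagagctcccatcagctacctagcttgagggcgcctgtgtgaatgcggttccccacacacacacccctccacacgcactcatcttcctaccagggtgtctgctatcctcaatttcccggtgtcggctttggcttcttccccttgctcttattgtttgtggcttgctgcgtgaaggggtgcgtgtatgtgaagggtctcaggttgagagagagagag
The Hcn2 window held 3 matches to the GC box, all read on the opposite strand, and was 70.4% G or C. The Trpc6 window held 1 match, to TGACG, and those of Scn11a and Trpc5 held none of these letters. RefSeq lists 68 promoters for 53 of the members. The GC box was in 30.9% of them and in 32.7% of all 32851 promoters, and TGACG in 17.6% and 17.8%. The shares were 8.82% and 12.4% for the TATA box, 23.5% and 33.8% for the CCAAT box, 5.88% and 7.68% for the Pbx and Hox motif, and 4.41% and 6.02% for the E-box.

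Compared per length, as CPM per kilobase of exon, Nav beta subunits had the highest summed level of the 10 families in each region. In PVN, ARC and NTS vehicle libraries (n = 10, 9 and 10) their sum was 125 ± 15.2, 102 ± 8.75 and 183 ± 31.2 (SD). The pore-forming families were lower and closer together across regions, with 64.5 ± 4.82, 62.6 ± 4.28 and 57.4 ± 2.84 for Nav alpha and 57.3 ± 7.94, 64.1 ± 3.93 and 47.7 ± 3.85 for Cav alpha1. HCN genes summed to 40.9 ± 4.79, 38.1 ± 3.78 and 52.9 ± 7.97. The TRP families lay lowest, with 21.6 ± 2.34, 23 ± 2.72 and 16.1 ± 1.12 for TRPC, 9.19 ± 0.601, 8.51 ± 0.709 and 11 ± 0.451 for TRPM, and 12.7 ± 1.87, 9.32 ± 1.02 and 10.1 ± 1.1 for TRPV with TRPA. The 13 members below the filter included the sensory neuron channels Scn10a and Trpm8, the skeletal muscle channel Scn4a, the heat and capsaicin receptor Trpv1 and the retinal genes Cacna1f and Trpm1. Their highest group mean was 1.17 CPM, for Trpv1 in NTS vehicle libraries. Trpc2 and Trpv5 had 0 counts in all 59 libraries, where 3 counts would be 0.106 to 0.765 CPM depending on the library. Trpc2 shares exons with the readthrough gene Xntrpc, so its count is uncertain.

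The make-up of the families shifted between regions. Scn2a, a channel of the axon initial segment and unmyelinated axons, held 31 ± 2.34% of the Nav alpha sum in PVN, 25.5 ± 2.27% in ARC and 28 ± 2.19% in NTS. Scn9a, best known from pain neurons and also expressed in hypothalamus, held 19.9 ± 1.83%, 25.8 ± 2.22% and 11.5 ± 2.7%. Scn1a, a main channel of fast-spiking inhibitory neurons, held 9.5 ± 1.43%, 9.4 ± 1.7% and 21.9 ± 4.6%. So Scn9a and Scn1a changed places between the hypothalamic regions and NTS, while Scn2a stayed among the leading genes. Among TRPC genes Trpc5 led in PVN with 42.4 ± 7.93%, while Trpc4 and Trpc6 held 23.1 ± 3.16% and 20.4 ± 3.09% in ARC. Hcn2 held 48.7 ± 2.73% of the HCN sum in PVN, 47.6 ± 3.95% in ARC and 67.5 ± 6.04% in NTS. These shares were not tested. The levels of Scn1a and Hcn2 in PVN and ARC were not called different from NTS with the oligodendrocyte covariate described below.

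Most channel genes differed between regions. In vehicle libraries 35 of 55 members differed between PVN and ARC at a false discovery rate (FDR) under 0.05 in edgeR, 63.6% of them against 46% of all 14379 genes tested. Of these 14 were higher in PVN (25.5% of members, 24.8% of all genes) and 21 lower (38.2% and 21.1%). Between PVN and NTS 38 differed, 69.1% against 56.1%, with 18 higher in PVN (32.7% and 28.3%) and 20 lower (36.4% and 27.8%). Between ARC and NTS 35 differed, 63.6% against 61.7%, which is near the background, with 16 higher in ARC (29.1% and 30.2%) and 19 lower (34.5% and 31.5%). The median size of the log2 difference in the 3 comparisons was 0.40, 0.44 and 0.54 for members and 0.23, 0.28 and 0.32 for all genes. Over the 3 comparisons 50 members were called at least once, 14 in all 3 and 5 in none. The mean was highest in PVN for 13 members, in ARC for 20 and in NTS for 22, and that region was called over both others for 9, 11 and 13 of them. These counts over the 3 comparisons were not made for all genes, so they have no background beside them. No family was tested against the share of all genes called. In bulk tissue, fewer cells of a type and less RNA per cell cannot be told apart.

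**Figure D1:**
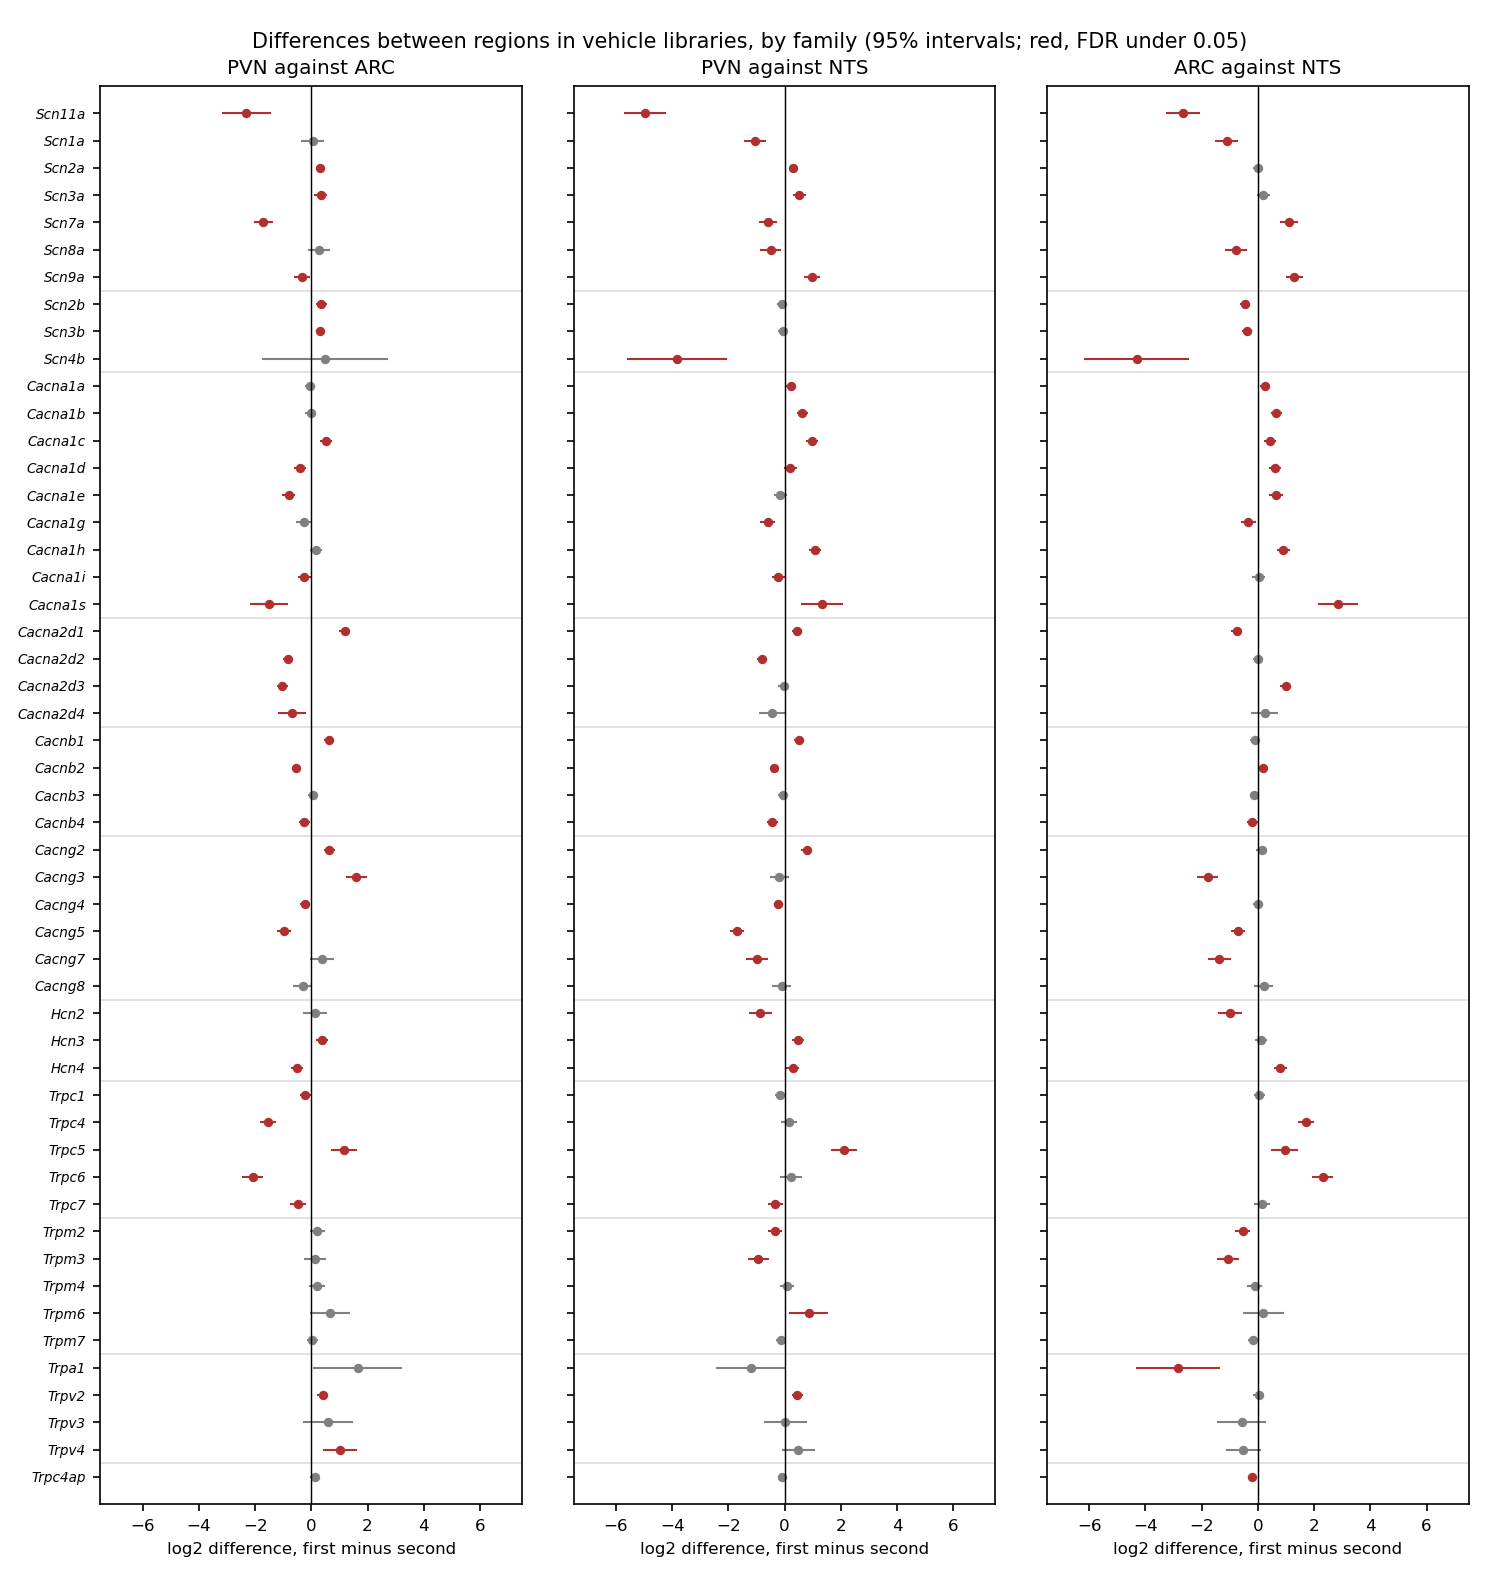
Log2 differences between regions in vehicle libraries for 51 of the 55 members tested, by family, with 95% intervals; red marks an FDR under 0.05. Points right of 0 are higher in the first region named: Scn11a lies at -4.97 and -2.66 in the comparisons with NTS.

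All 8 Nav alpha genes tested differed between PVN and NTS, 4 in each direction, where 56.1% of all genes differed. In the fit with oligodendrocyte markers as a covariate, described with those markers, 4 of the 8 calls remained and 1 was made in the opposite direction. Scn11a, the persistent-current channel Nav1.9 of visceral and pain afferents, ranged in vehicle libraries from 0 to 1.01 CPM in PVN (median 0.318), from 0.645 to 2.4 CPM in ARC (median 1.36) and from 4.91 to 16.8 CPM in NTS (median 9.63). Every NTS library lay above every PVN and ARC library. The log2 difference was -4.97 ± 0.36 (SE) for PVN against NTS (FDR 4.54e-19) and -2.66 ± 0.29 for ARC against NTS (FDR 3.29e-12). Scn9a had a mean ± SD over vehicle libraries, the form used from here on, of 164 ± 21.2 CPM in PVN (n = 10), 207 ± 28.2 CPM in ARC (n = 9) and 84.3 ± 20.3 CPM in NTS (n = 10), and no NTS vehicle library reached the lowest of the other regions. Scn7a, which encodes the sodium-level sensor Nax, ranged from 2.81 to 12.4 CPM in PVN (median 6.86), from 17.9 to 40.5 CPM in ARC (median 20.4) and from 7.92 to 11.9 CPM in NTS (median 10.9). ARC lay above both without overlap, and the log2 difference was -1.71 ± 0.15 for PVN against ARC (FDR 1.02e-15). Scn2a and Scn3a were higher in PVN than in ARC by 0.32 ± 0.07 and 0.33 ± 0.10 on the log2 scale (FDR 4.41e-05 and 0.00416).

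A group of sodium and HCN genes was high in NTS together. Scn4b, a beta subunit of fast-spiking and large myelinated neurons, ranged in vehicle libraries from 0.838 to 6.81 CPM in PVN (median 3.42), from 0 to 13 CPM in ARC (median 0.651) and from 2.7 to 107 CPM in NTS (median 39.9). The NTS range overlapped the other regions at its lower end. Hcn2, a widely expressed brain HCN isoform, ranged from 50.2 to 78.2 CPM in PVN (median 64.2), from 44.9 to 79.1 CPM in ARC (median 57.6) and from 77.8 to 152 CPM in NTS (median 115). Its lowest NTS library fell inside the ranges of PVN and ARC. For PVN against NTS the log2 difference was -3.83 ± 0.87 (FDR 0.000164) for Scn4b, -0.86 ± 0.19 (FDR 7.67e-05) for Hcn2, -1.05 ± 0.18 (FDR 1.96e-06) for Scn1a and -0.49 ± 0.17 (FDR 0.0109) for Scn8a, the Nav1.6 channel of mature nodes of Ranvier. For ARC against NTS the same genes gave -4.32 ± 0.92, -0.99 ± 0.19, -1.10 ± 0.19 and -0.78 ± 0.17 in this order, all called. The beta subunits Scn2b and Scn3b were lower in ARC than in NTS (-0.45 ± 0.07, FDR 2.47e-07, and -0.39 ± 0.07, FDR 6.48e-07) and were not called between PVN and NTS. With the oligodendrocyte covariate Scn2b was at -0.10 ± 0.09 (FDR 0.42) for ARC against NTS and no longer called, while Scn3b was at -0.65 ± 0.09 (FDR 1.85e-08) and also called for PVN against NTS, at -0.27 ± 0.08 (FDR 0.0038).

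**Figure D2:**
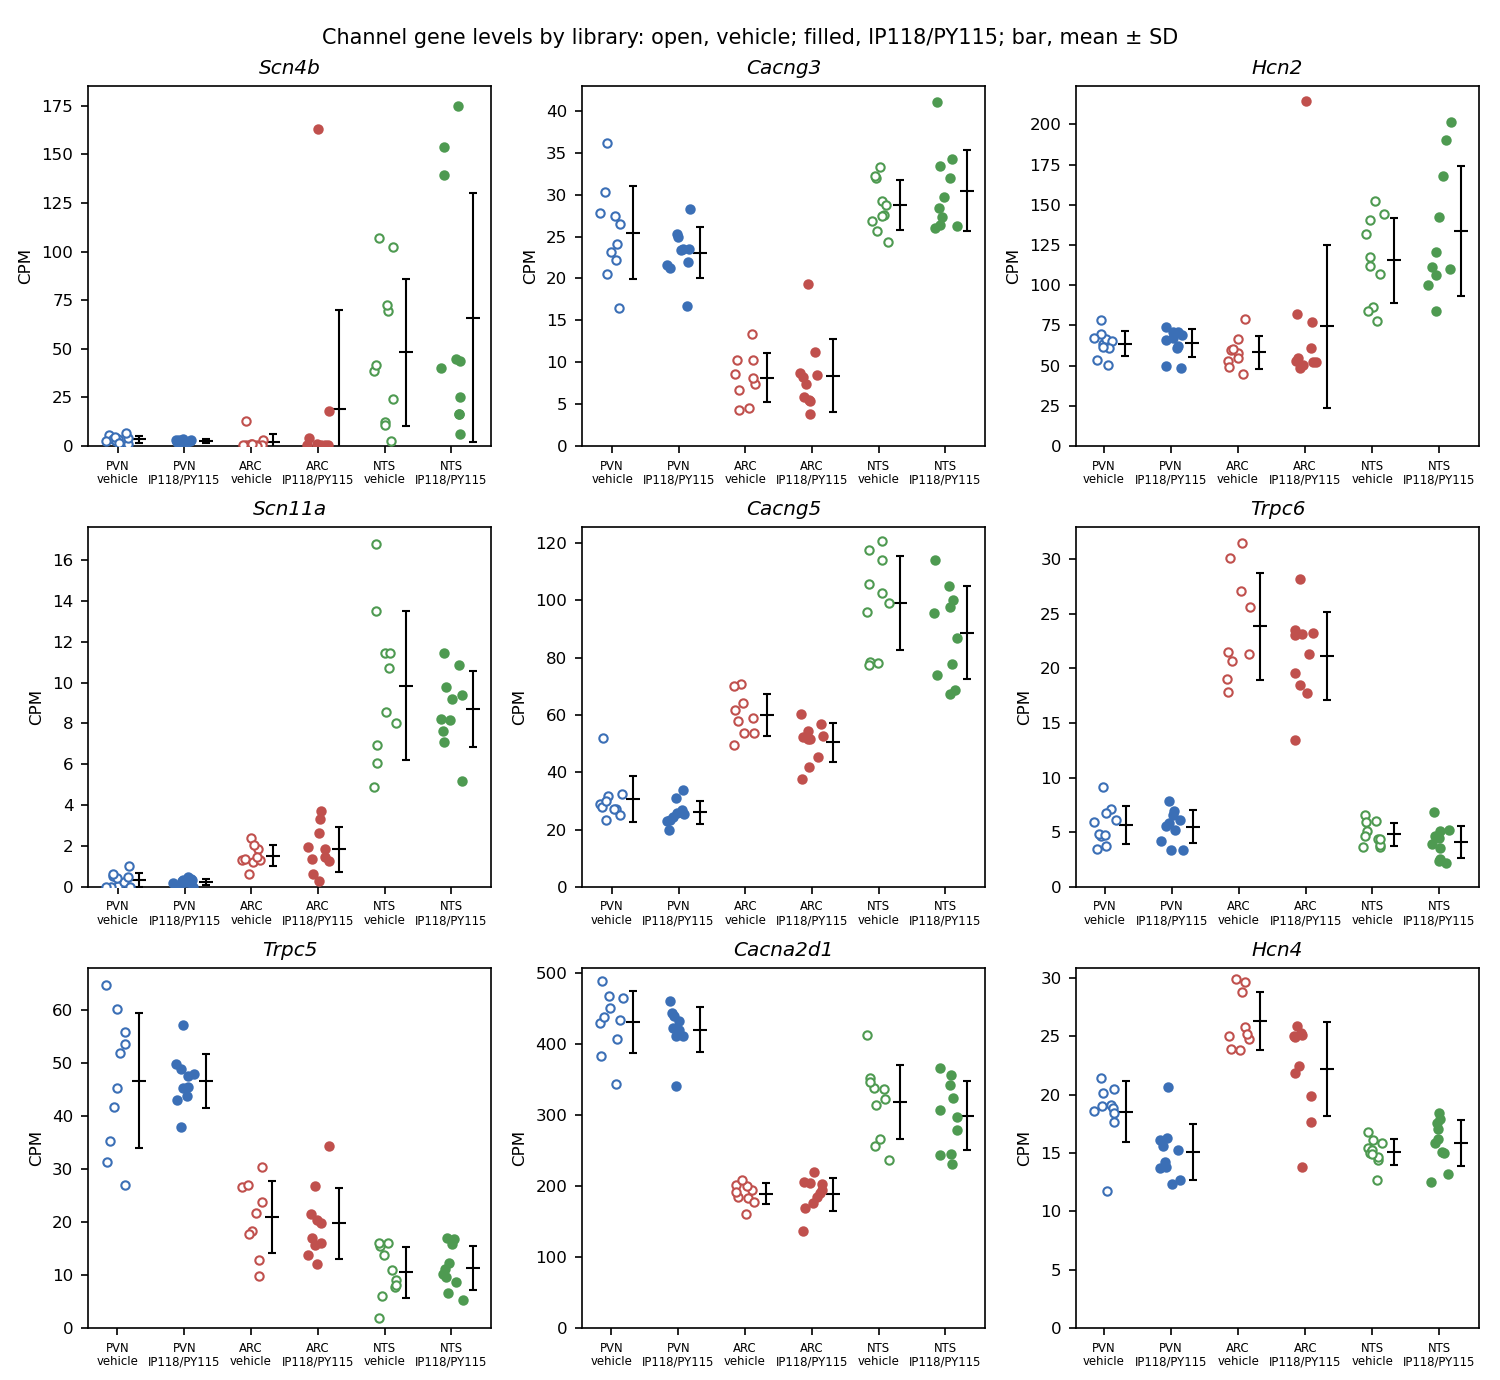
CPM of 9 channel genes in each of the 59 libraries by region and treatment; open points are vehicle, filled points IP118/PY115, and the bar beside each group is its mean ± SD, cut off at 0. ARC IP118/PY115 library 2 stands alone at 163 CPM for Scn4b and 214 CPM for Hcn2, and the ARC points of Trpc6 lie above those of the other regions.

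Oligodendrocyte markers moved with these genes. The list of 6 markers, with Mbp, Mog, Mobp, Mag and Cnp among them, was detected in full in every group, and their summed level was 2109 to 6397 CPM in NTS vehicle libraries, 865 to 1248 CPM in PVN and 468 to 1238 CPM in ARC. With IP118/PY115 it was 1933 to 9099 CPM, 724 to 1198 CPM and 479 to 5539 CPM. Across the 20 NTS libraries the mean log2(CPM + 1) of the markers went with that of Scn4b (Pearson r 0.954, Spearman rho 0.971), Hcn2 (0.925 and 0.943), Scn8a (0.875 and 0.931) and Scn1a (0.812 and 0.844). For the first 3, both permutation p-values were 1e-05, the smallest that 100000 permutations can give, and for Scn1a they were 2e-05 and 1e-05. Adjusted over the 63 relations computed, 21 genes in 3 regions, the Pearson p was 0.000126 for the first 3 and 0.00021 for Scn1a. Without the 2 libraries farthest from the median marker level r was 0.939, 0.916, 0.903 and 0.859. Cacng5 and Cacna2d1 went the opposite way in NTS, with r -0.834 and -0.767 (adjusted permutation p 0.000126 and 0.000472) and rho -0.866 and -0.818 (adjusted permutation p 0.000105 and 0.00027). In all, 11 of 21 genes had an adjusted Pearson p under 0.05 in NTS (6 positive, 5 negative), 7 in ARC (all positive) and 2 in PVN. By Spearman's rho these counts were 10, 4 and 1, and in ARC Scn4b, Scn8a and Trpm2 were no longer among them. Scn1a and Scn8a entered the list after their values were seen. No other cell type list was set against these genes by library. In vehicle libraries the neuron markers summed to 2811 to 3375 CPM in NTS, 2224 to 2683 CPM in PVN and 1725 to 2040 CPM in ARC. The astrocyte markers summed to 1748 to 2561 CPM, 1040 to 1853 CPM and 618 to 808 CPM in the same order. Not every marker followed its sum between PVN and NTS. Vehicle means in PVN and NTS were 548 and 528 CPM for Tubb3, and 628 and 573 CPM for Stmn2. Snap25 (786 and 1370 CPM), Syt1 (433 and 492 CPM) and Rbfox3 (58.3 and 108 CPM) were higher in NTS. The astrocyte marker Slc1a3 was 795 and 607 CPM, while the others of its list were higher in NTS. The endothelial markers were highest in PVN instead. The part of these lists in the levels of the channel genes was not tested.

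**Figure D3:**
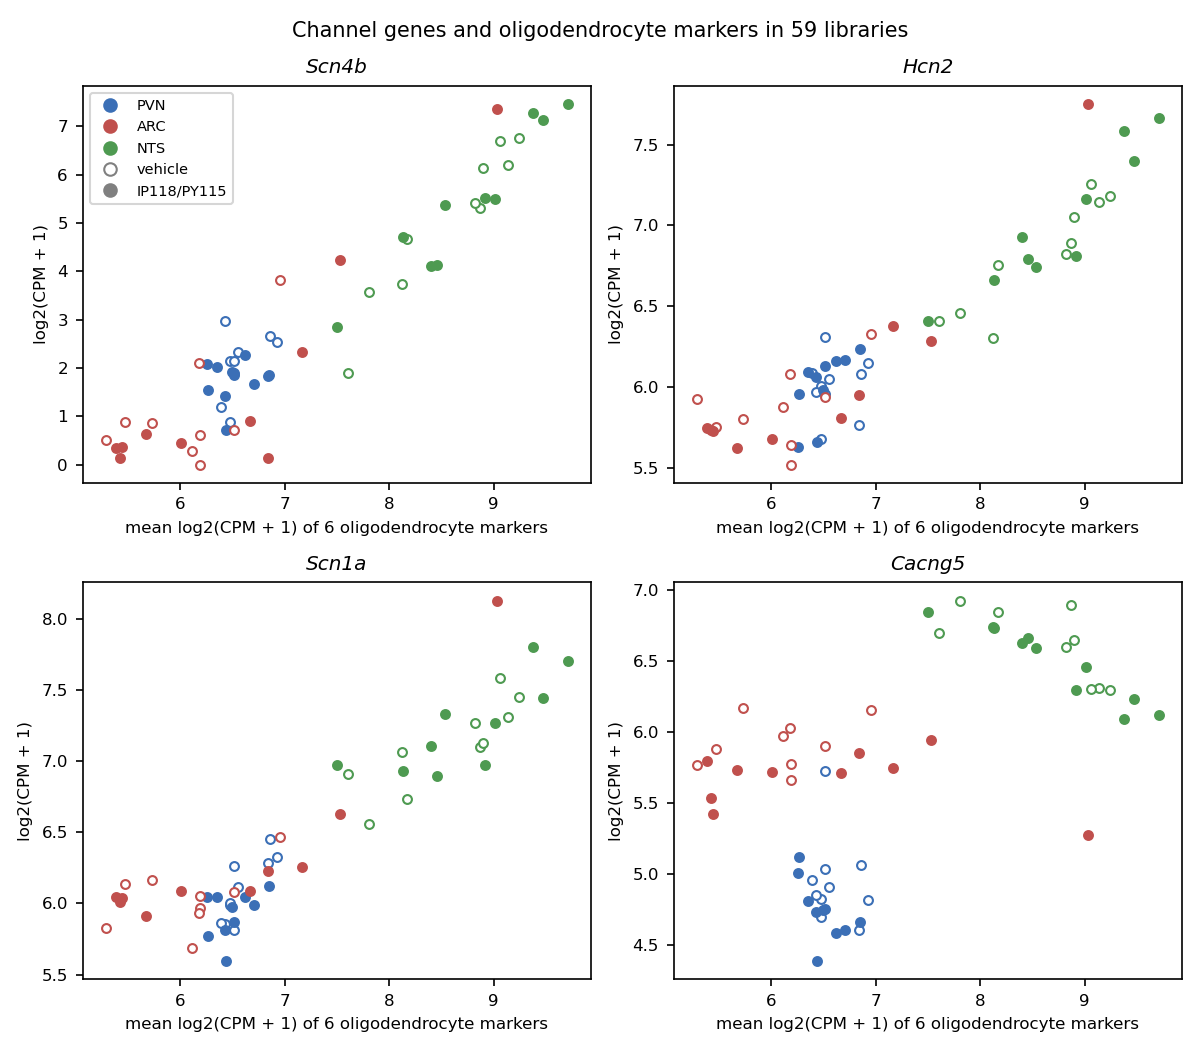
Log2(CPM + 1) of 4 channel genes against the mean log2(CPM + 1) of 6 oligodendrocyte markers, 1 point per library, coloured by region and open for vehicle. Scn4b, Hcn2 and Scn1a climb with the markers in NTS (r 0.954, 0.925 and 0.812) and Cacng5 falls (r -0.834).

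ARC IP118/PY115 library 2 stood apart on both measures and had the highest marker level of the ARC libraries. It held 163 CPM of Scn4b where the next library of its group held 17.7 CPM, and 214 CPM of Hcn2 against 82.1 CPM. In ARC r was 0.855 for Scn4b and 0.86 for Hcn2 (adjusted permutation p 0.00045 and 0.000504) and rho was 0.546 and 0.619 (adjusted permutation p 0.0581 and 0.0257). Pearson's r was 0.544 and 0.624 without IP118/PY115 libraries 2 and 1. The marker level was then added as a covariate to the fit of all 59 libraries, an alternative chosen after seeing the data. With it 24 members were called between PVN and NTS (43.6%, against 43% of all genes in that fit) and 22 between ARC and NTS (40% against 37.3%) in vehicle libraries, so the share called fell for all genes too. Of the 38 and 35 calls made without the covariate 18 and 17 remained, and 2 in each comparison were called in the opposite direction. Between PVN and ARC 34 of 35 remained, and 35 were called in all (63.6% against 43.7%). The log2 difference for PVN against NTS became -0.11 ± 0.12 (FDR 0.512) for Scn1a and 0.18 ± 0.12 (FDR 0.216) for Hcn2, and it turned to 1.78 ± 0.47 (FDR 0.00156) for Scn4b and 0.42 ± 0.12 (FDR 0.00479) for Scn8a. For ARC against NTS it became 0.09 ± 0.14 (FDR 0.668) for Scn1a and 0.31 ± 0.13 (FDR 0.0603) for Hcn2, and turned to 1.83 ± 0.52 (FDR 0.004) for Scn4b and 0.35 ± 0.14 (FDR 0.044) for Scn8a. For PVN against NTS Scn11a was at -5.12 ± 0.44 (FDR 1.82e-15) and Cacng5 at -1.95 ± 0.14 (FDR 7.62e-19). No PVN or ARC vehicle library reached the lowest NTS vehicle library in these markers, so region and marker level cannot be told apart between them. The fit with the covariate takes 1 slope for all regions. Cacng3 rose with the markers in ARC (r 0.633) and fell in NTS (r -0.582). This fit was not repeated without ARC IP118/PY115 library 2.

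Calcium channel pores were mostly lower in NTS. Of 9 Cav alpha1 genes tested, 8 differed between ARC and NTS, 7 of them higher in ARC, and 8 differed between PVN and NTS, 6 of them higher in PVN. Of all genes 61.7% and 56.1% differed in these comparisons. With the oligodendrocyte covariate 3 of the 8 ARC against NTS calls remained, those of Cacna1b, Cacna1h and Cacna1s, and 5 of the 8 PVN against NTS calls, those of the same genes with Cacna1c and Cacna1g. Cacna1h, a low-threshold T-type channel, ranged in vehicle libraries from 45.5 to 100.3 CPM in PVN (median 73), from 55.3 to 73.6 CPM in ARC (median 68.2) and from 32.6 to 46.3 CPM in NTS (median 34.5). All ARC libraries exceeded all NTS libraries, the lowest PVN library fell just below the highest NTS library, and the log2 difference for PVN against NTS was 1.07 ± 0.09 (FDR 7.19e-16). Cacna1c, the L-type channel Cav1.2, ranged from 58.7 to 108 CPM in PVN (median 89.6), from 51.5 to 73.8 CPM in ARC (median 58.2) and from 33.3 to 49.4 CPM in NTS (median 46.8). NTS lay below both hypothalamic regions without overlap, and the log2 difference was 0.97 ± 0.09 (FDR 1.11e-14) for PVN against NTS and 0.44 ± 0.09 (FDR 3.65e-05) for ARC against NTS, or 0.29 ± 0.14 (FDR 0.0837) with the covariate for the latter. The N-type gene Cacna1b was 169 ± 28.2 CPM in PVN, 171 ± 15.8 CPM in ARC and 109 ± 10.3 CPM in NTS. Cacna1e, the R-type channel, was highest in ARC, with 297 ± 28.7 CPM against 169.6 ± 17 CPM in PVN and 189 ± 44.8 CPM in NTS. For ARC against NTS it was at 0.65 ± 0.10 (FDR 1.26e-07), and at 0.12 ± 0.12 (FDR 0.436) with the covariate. The T-type gene Cacna1g was highest in NTS instead, with 87.2 ± 10.1 CPM in NTS, 68.5 ± 14.8 CPM in ARC and 57.5 ± 9.56 CPM in PVN, and its difference of ARC from NTS was -0.34 ± 0.11 (FDR 0.00684), or -0.18 ± 0.16 (FDR 0.401) with the covariate. The skeletal muscle gene Cacna1s was low yet called in all 3 comparisons, with 3.68 ± 0.711 CPM in ARC, 1.3 ± 0.577 CPM in PVN and 0.485 ± 0.366 CPM in NTS. Cacna1h and Cacna1s overlap genes on the opposite strand, and the strand setting of the counting is not given in the sources used here.

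All 4 alpha2delta genes differed between PVN and ARC, 1 higher and 3 lower in PVN, where 46% of all genes differed. Cacna2d1, the gabapentin-binding alpha2delta-1 subunit, ranged in vehicle libraries from 344 to 489 CPM in PVN (median 436), from 161 to 209 CPM in ARC (median 192) and from 236 to 412 CPM in NTS (median 329). ARC lay below both other regions without overlap, and the log2 difference for PVN against ARC was 1.19 ± 0.08 (FDR 1.17e-19). Cacna2d3 ranged from 26.1 to 45.9 CPM in PVN (median 36.6), from 67.1 to 78.9 CPM in ARC (median 75.1) and from 30.8 to 42.9 CPM in NTS (median 37). Here ARC lay above both, with log2 differences of -1.03 ± 0.08 (FDR 7.4e-17) for PVN against ARC and 0.99 ± 0.08 (FDR 1.12e-16) for ARC against NTS. Cacna2d2 was 104 ± 14.6 CPM in PVN, 185 ± 27.4 CPM in ARC and 183 ± 12.1 CPM in NTS, and the last pair was not called different (0.02 ± 0.07, FDR 0.835). Of the beta subunits, which bind the alpha1 pore from inside, Cacnb1 ranged from 86.5 to 155 CPM in PVN (median 129), from 66.7 to 91.5 CPM in ARC (median 84.1) and from 79.4 to 105 CPM in NTS (median 86.4). PVN overlapped both other regions at its lower end, and the log2 difference was 0.63 ± 0.08 (FDR 1.09e-10) for PVN against ARC and 0.53 ± 0.07 (FDR 5.91e-09) for PVN against NTS. Cacnb2 ranged from 47.5 to 59.3 CPM in PVN (median 51.9), from 66.5 to 86.1 CPM in ARC (median 76.4) and from 56.2 to 81.5 CPM in NTS (median 68.4), lowest in PVN, with -0.54 ± 0.06 (FDR 2.15e-11) for PVN against ARC and no overlap between those regions. Cacnb3 was called in none of the 3 comparisons, but with the oligodendrocyte covariate it was called lower in PVN and in ARC than in NTS, at -0.21 ± 0.08 (FDR 0.0372) and -0.31 ± 0.10 (FDR 0.00753).

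Of 6 gamma genes tested, 4 differed between PVN and ARC, 4 between PVN and NTS and 3 between ARC and NTS. The shares of all genes were 46%, 56.1% and 61.7%. Cacng5 ranged in vehicle libraries from 23.3 to 51.9 CPM in PVN (median 28.4), from 49.6 to 70.8 CPM in ARC (median 58.9) and from 77.5 to 121 CPM in NTS (median 101). NTS lay above both other regions without overlap, 1 PVN library reached the ARC range, and the log2 difference was -1.69 ± 0.11 (FDR 7.27e-21) for PVN against NTS and -0.71 ± 0.11 (FDR 4.86e-08) for ARC against NTS. Cacng3 ranged from 16.5 to 36.2 CPM in PVN (median 25.3), from 4.3 to 13.4 CPM in ARC (median 8.16) and from 24.4 to 33.3 CPM in NTS (median 28.2). No ARC vehicle library reached the others, and the log2 difference was 1.60 ± 0.17 (FDR 5.51e-12) for PVN against ARC and -1.79 ± 0.17 (FDR 4.72e-14) for ARC against NTS. Cacng2, the gene of stargazin, was 147 ± 19.3 CPM in PVN, 94.9 ± 9.33 CPM in ARC and 86 ± 10.6 CPM in NTS. Cacng7 was lowest in ARC, at 6.9 ± 1.98 CPM, with 9.17 ± 1.88 CPM in PVN and 17.9 ± 5.4 CPM in NTS. With the oligodendrocyte covariate neither difference from NTS was called (FDR 0.513 and 0.183).

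Hcn3 was highest in PVN and Hcn4 in ARC. For Hcn4 the difference of PVN from NTS was called in vehicle libraries only. With IP118/PY115 its mean in PVN lay below that in NTS. Hcn4, the slowest isoform and the main pacemaker isoform of the heart, ranged in vehicle libraries from 11.8 to 21.4 CPM in PVN (median 19), from 23.8 to 29.9 CPM in ARC (median 25.2) and from 12.7 to 16.8 CPM in NTS (median 15.1). ARC lay above both other regions without overlap, and the log2 difference was -0.51 ± 0.09 (FDR 5.77e-06) for PVN against ARC and 0.80 ± 0.09 (FDR 3.05e-11) for ARC against NTS. Hcn3 was highest in PVN, at 64.9 ± 11.1 CPM against 49.9 ± 6.88 CPM in ARC and 46.4 ± 5.3 CPM in NTS. Its difference of PVN from NTS was 0.49 ± 0.09 (FDR 2.11e-06), or 0.23 ± 0.11 (FDR 0.0803) with the oligodendrocyte covariate, and its exons overlap Pklr on the opposite strand.

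All 6 TRPC genes tested differed between PVN and ARC, 2 higher and 4 lower in PVN, where 46% of all genes differed. Trpc6, a diacylglycerol-gated channel, ranged in vehicle libraries from 3.5 to 9.1 CPM in PVN (median 5.4), from 17.8 to 31.5 CPM in ARC (median 21.5) and from 3.61 to 6.57 CPM in NTS (median 4.56). ARC lay above both without overlap, with log2 differences of -2.08 ± 0.17 (FDR 5.33e-17) for PVN against ARC and 2.30 ± 0.17 (FDR 2.3e-19) for ARC against NTS. With the oligodendrocyte covariate the latter was 1.90 ± 0.24 (FDR 6.2e-10). Across NTS libraries Trpc6 went against the oligodendrocyte markers (r -0.718, rho -0.744, adjusted permutation p 0.00136 and 0.00244). Trpc4 had the same order, at 42.5 ± 6.54 CPM in ARC, 14.5 ± 2.69 CPM in PVN and 13 ± 3.14 CPM in NTS. Trpc5, its closest relative, ranged from 26.9 to 64.7 CPM in PVN (median 48.5), from 9.76 to 30.4 CPM in ARC (median 21.7) and from 1.91 to 16.1 CPM in NTS (median 9.96). It was highest in PVN, which did not overlap NTS, and the log2 difference was 2.11 ± 0.22 (FDR 3.04e-12) for PVN against NTS and 1.16 ± 0.22 (FDR 1.22e-05) for PVN against ARC.

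None of 5 TRPM genes was called between PVN and ARC, where 46% of all genes were. Trpm3, a steroid- and heat-gated channel, ranged in vehicle libraries from 13.9 to 37 CPM in PVN (median 25.7), from 12.5 to 37.2 CPM in ARC (median 23.4) and from 26.7 to 59.2 CPM in NTS (median 51.4). The ranges overlapped, and the log2 difference for PVN against NTS was -0.93 ± 0.17 (FDR 5.47e-06), or -0.36 ± 0.21 (FDR 0.149) with the oligodendrocyte covariate. Trpm2, an oxidative stress and warmth channel, ranged from 14.9 to 32.1 CPM in PVN (median 23), from 17 to 27.2 CPM in ARC (median 19.8) and from 21.8 to 38.2 CPM in NTS (median 29). These ranges overlapped too, and ARC against NTS gave -0.54 ± 0.11 (FDR 2.71e-05), or -0.00422 ± 0.14 (FDR 0.985) with that covariate. Across NTS libraries Trpm2 went with the markers (r 0.659, rho 0.725, adjusted permutation p 0.00735 and 0.00266). Trpv2 ranged from 42.9 to 68.3 CPM in PVN (median 51.4), from 34.2 to 48.1 CPM in ARC (median 39.7) and from 30.6 to 45.6 CPM in NTS (median 39.1). PVN was higher with overlap at the edges, by 0.41 ± 0.08 (FDR 2.16e-05) against ARC and 0.45 ± 0.08 (FDR 1.93e-06) against NTS, the latter 0.21 ± 0.10 (FDR 0.079) with the oligodendrocyte covariate. Across NTS libraries Trpv2 went against the oligodendrocyte markers (r -0.624, rho -0.662, adjusted permutation p 0.013 and 0.0125). The summed level of the 4 endothelial markers was also higher in PVN vehicle libraries, at 129 to 275 CPM against 41.7 to 71.3 CPM in ARC and 79.3 to 126 CPM in NTS, with none at 0, and its part in the Trpv2 result was not tested. The irritant receptor Trpa1 was 2.17 ± 1.99 CPM in NTS and 0.304 ± 0.438 CPM in ARC, with -2.84 ± 0.72 (FDR 0.000565) for ARC against NTS, or -0.91 ± 1.09 (FDR 0.545) with the oligodendrocyte covariate.

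The regional pattern recurred in the mice given IP118/PY115. There 38 of 55 members were called for PVN against ARC (69.1%, against 48.7% of all genes), 40 for PVN against NTS (72.7% against 58.8%) and 37 for ARC against NTS (67.3% against 63.8%). Of the vehicle calls 33, 35 and 34 were made again in the same direction and none in the opposite direction. These shared calls are 94.3%, 92.1% and 97.1% of the vehicle calls and 86.8%, 87.5% and 91.9% of the IP118/PY115 calls, where all genes gave 81.7%, 87.2% and 89.5% and 77.1%, 83.1% and 86.5%. The highest region was the same in both treatments for 50 of 55 members.

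No channel gene passed the test of IP118/PY115 against vehicle with all libraries. In PVN 0 of 52 members had an FDR under 0.05 in edgeR, where 88 of 13409 genes did (0.656%). In ARC 0 of 51 members and 0 of 13484 genes (0%) did, and in NTS 0 of 52 members and 0 of 13696 genes (0%). DESeq2 also called 0 members. Without the libraries numbered 1, edgeR called 1 member in PVN (1.92%, against 3.22% of all genes), 1 in ARC (1.96% against 1.14%) and 0 in NTS (0% against 1.18%). At an unadjusted p under 0.05 edgeR marked 5 members in PVN (9.62%, against 9.34% of all genes), 7 in ARC (13.7% against 7.2%) and 0 in NTS (0% against 5.8%). The 95% interval lay within 0.5 either way on the log2 scale, a 1.41-fold change, for 45 of the members tested in PVN, for 42 of those in ARC and for 39 of those in NTS. The median log2 difference of members was -0.06, 0.01 and 0.03, and that of all genes in PVN was -0.02. The unadjusted counts, the intervals and these medians come from all libraries, with those numbered 1 under their labels.

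**Figure D4:**
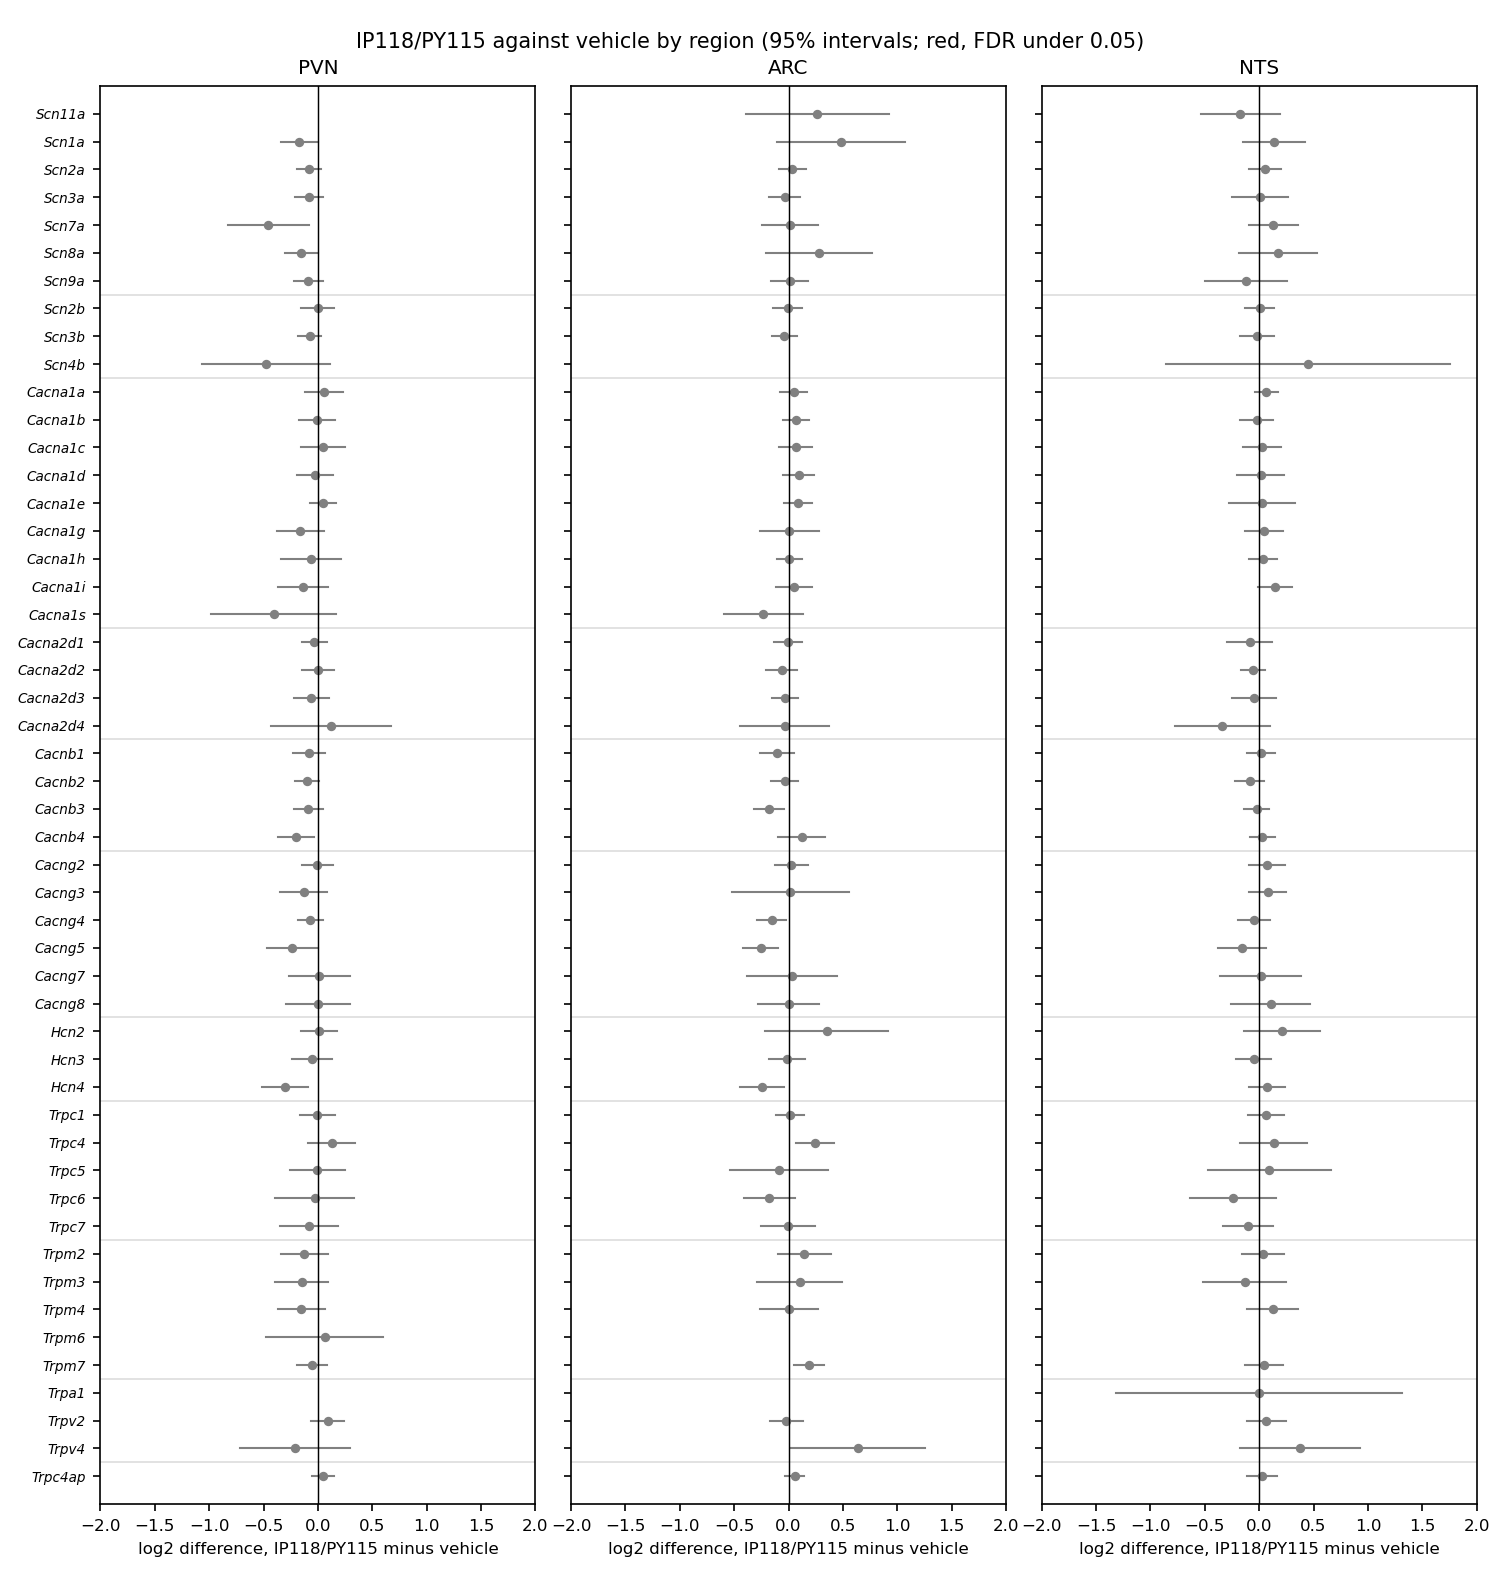
Log2 differences for IP118/PY115 minus vehicle in PVN, ARC and NTS, 1 line for each of 50 members, by family, with 95% intervals; red would mark an FDR under 0.05. No point is red, and most intervals lie between -0.5 and 0.5.

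Hcn4 had the smallest p of the members in PVN. It ranged from 11.8 to 21.4 CPM in PVN vehicle libraries (median 19) and from 12.3 to 20.6 CPM with IP118/PY115 (median 14.7). The library labelled vehicle 1 was the lowest of the vehicle group, at 11.8 CPM with the next at 17.6 CPM, and IP118/PY115 library 9 was the highest of its group, at 20.6 CPM. The log2 difference was -0.30 ± 0.10 (FDR 0.226). Without the libraries numbered 1 it was -0.36 ± 0.09 (FDR 0.0243), and without the library labelled PVN vehicle 1 alone it was -0.37 ± 0.09 (FDR 0.0211), so that Hcn4 was then called. In ARC Hcn4 ranged from 23.8 to 29.9 CPM with vehicle and from 13.8 to 25.8 CPM with IP118/PY115, overlapping, with -0.25 ± 0.10 (FDR 0.546) and an FDR of 0.323 without the libraries numbered 1. In NTS it ranged from 12.7 to 16.8 CPM and from 12.5 to 18.4 CPM, and the log2 difference was 0.07 ± 0.08 (FDR 0.999). The test of the difference between the PVN and NTS effects gave -0.38 ± 0.13 (FDR 0.665).

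Cacng5 had the smallest p of the members in ARC. It ranged there from 49.6 to 70.8 CPM with vehicle (median 58.9) and from 37.7 to 60.4 CPM with IP118/PY115 (median 51.9), and the ranges overlapped. The log2 difference was -0.25 ± 0.08 (FDR 0.289). Without the libraries numbered 1 it was -0.31 ± 0.08 (FDR 0.034) and was called. In PVN the difference was -0.23 ± 0.11 (FDR 0.541) and in NTS -0.16 ± 0.11 (FDR 0.999). The other members with an unadjusted p under 0.05 in PVN were Cacnb4 (-0.20 ± 0.08, FDR 0.343), Scn7a (-0.46 ± 0.18, FDR 0.343), Scn1a (-0.17 ± 0.08, FDR 0.52) and Scn8a (-0.15 ± 0.07, FDR 0.528). In ARC they were Trpc4 (0.24 ± 0.08, FDR 0.419), Trpm7 (0.19 ± 0.07, FDR 0.479), Cacnb3 (-0.18 ± 0.07, FDR 0.484), Hcn4, Cacng4 (-0.16 ± 0.06, FDR 0.571) and Trpv4 (0.64 ± 0.30, FDR 0.67). Scn1a in ARC was 65.3 ± 10.6 CPM with vehicle and 91.2 ± 66.8 CPM with IP118/PY115, where library 2 held 279 CPM. In NTS the smallest p belonged to Cacna1i (0.15 ± 0.08, FDR 0.923).

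No member's treatment effect differed between regions at an FDR under 0.05 in edgeR, where 0.0487%, 0.0904% and 0% of all genes did for PVN against ARC, PVN against NTS and ARC against NTS. At an unadjusted p under 0.05 there were 6, 4 and 3 of 55 members (10.9%, 7.27% and 5.45%, against 6.21%, 4.28% and 3.76% of all genes). Each pair of these comparisons shares the libraries of a region.

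Some genes of proteins that work with these channels also differed between regions, as many of all genes did. None of the lists was tested against the share of all genes called. Nav partners between PVN and NTS lay below that share, as did TRP relatives between PVN and ARC and between ARC and NTS. HCN partners lay below it in both comparisons with NTS, and CatSper genes in every comparison. For treatment, 0 of the genes on these lists were called in any region with all libraries. Of 11 Nav partners (FHF factors, ankyrins, spectrin, node adhesion proteins and regulators) 6 differed between PVN and ARC in vehicle libraries, 5 between PVN and NTS and 10 between ARC and NTS, where all genes gave 46%, 56.1% and 61.7%. With the oligodendrocyte covariate 5, 3 and 4 of the Nav partner calls remained in the same order of comparisons. New calls were also made, so that 5, 7 and 4 Nav partners were called in all with it. In that fit all genes gave 43.7%, 43% and 37.3%. The FHF gene Fgf11 was 20.5 CPM in PVN, 2.69 CPM in ARC and 14.1 CPM in NTS (-2.42 ± 0.30, FDR 5.54e-10 for ARC against NTS), or -0.78 ± 0.28 (FDR 0.0253) with the covariate. Fgf13 was 40.6, 71.9 and 108 CPM in the same order (-1.43 ± 0.09, FDR 4.6e-21 for PVN against NTS). Of 13 Cav partners 9, 8 and 10 differed in the same comparisons, and 7, 1 and 4 of these calls remained with the covariate. In all 7, 2 and 5 Cav partners were called with it. Stac2, a regulator of L-type channels, was 29.5 CPM in PVN, 2.1 CPM in ARC and 43.1 CPM in NTS (-4.42 ± 0.46, FDR 2.23e-12 for ARC against NTS), or -2.19 ± 0.39 (FDR 7.57e-06) with the covariate. Of 2 HCN partners tested 2, 1 and 1 differed, and 2, 1 and 0 of these calls remained with the covariate, which called 2 in each comparison. Pex5l, which encodes the HCN partner TRIP8b, was likewise low in ARC, at 31.3 CPM against 62.8 CPM in PVN and 68.7 CPM in NTS. For ARC against NTS its log2 difference was -1.13 ± 0.23 (FDR 2.72e-05), but with the covariate it turned to 0.51 ± 0.17 (FDR 0.0118). In the complex of the sodium leak channel Nalcn, 2 of 4 genes differed between PVN and ARC, 4 between PVN and NTS and 3 between ARC and NTS, these 3 higher in ARC. With the covariate 1 of these calls remained in each comparison. Among 7 relatives of the TRP channels (Pkd, Mcoln and Tpcn genes) 3, 5 and 3 differed, and 3, 2 and 1 of these calls remained with the covariate. The endolysosomal channel gene Tpcn1 was 49.2 CPM in PVN, 25.9 CPM in ARC and 94.6 CPM in NTS (-1.86 ± 0.09, FDR 2.53e-27 for ARC against NTS). Of 2 CatSper genes tested 1 differed between PVN and NTS and 0 in the other comparisons, and with the covariate that call did not remain.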

How the data were processed

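The deposited table holds raw counts for each gene ID in each library, made by the authors. Demultiplexing used bcl2fastq 2.20.0.422, and STAR 2.5.2a and GRCm38 are named, per the submitters' processing notes. How reads were counted, with which strand setting and annotation, and whether genes were filtered is not given in the sources used here. A GRCm38 gene annotation gave symbols and exons for 21858 of 21935 IDs. Members and lists were chosen with earlier results of these data known.

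Counts were tested with edgeR 4.0.16 in R 4.3.3 (robust quasi-likelihood test, two-sided, filterByExpr with minimum count 10 and minimum total 15, TMM scaling), with Benjamini-Hochberg adjustment over all genes tested. Treatment was fitted within each region; comparisons of regions and of treatment effects came from 1 fit of the 59 libraries. CPM use TMM-adjusted totals, and values per kilobase use merged exon length. Alternatives used DESeq2 1.42.0, other scalings, filters and covariates, and subsets of libraries. Correlations used 100000 permutations. The fits were tested on simulated data. No libraries of a group were alike within sampling noise (lowest chi-square per degree of freedom 2.87).

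Members named for treatment are the 10 with the smallest p per region. For regions they are the 8 with the largest difference per direction and comparison among called members of at least 5 CPM, and the 2 members per family with the widest range of vehicle means are given by library. Any member may be named for its level, and the values of a few genes are not reported here. Of the 68 members, 19 overlap exons of another annotated gene.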

Additional observations from a re-analysis of the deposited data

Results flagged for a closer look

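Of 102 groups searched (17 members in 6 groups), 12 had 1 library far from the rest, judged by its gap to the nearest library over the range of the group; chance gives about 1 group in 20. ARC IP118/PY115 library 2 accounts for 4 of them: it was high for Scn4b, at 163 CPM (nearest 17.7), Hcn2, at 214 CPM (nearest 82.1), Trpm2, at 36.3 CPM (nearest 26), and Cacng3, at 19.4 CPM (nearest 11.2). Its oligodendrocyte markers were also the highest of ARC, and their part in these values was not tested. ARC vehicle library 8 was high for Scn4b, at 13 CPM, and for Trpm2, at 27.2 CPM.

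In PVN, the library labelled vehicle 1 was low for Hcn4, at 11.8 CPM, and vehicle library 5 was high for Cacng5, at 51.9 CPM. IP118/PY115 library 9 of PVN was high for Hcn4, at 20.6 CPM, and low for Cacna2d1, at 341 CPM. Library 3 of that group was low for Cacna2d3, at 28.2 CPM. In NTS, vehicle library 3 was high for Cacna1h, at 46.3 CPM.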

How the results depend on the processing

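No paired analysis was possible because the labels give no replicate numbers and do not tie libraries to animals. Leaving out 1 library at a time gave 0 to 1 members called for treatment in PVN (Hcn4, without the library labelled PVN vehicle 1) and 0 in ARC and in NTS. Without the libraries numbered 1 there was 1 call in PVN (Hcn4), 1 in ARC (Cacng5) and 0 in NTS, where 429, 153 and 162 of all genes were called. Every other alternative run (DESeq2, RLE or library totals as scaling, a stricter and no filter, an FDR of 0.1, depth or marker covariates, only the groups compared, and the other subsets of libraries) kept the counts of calls within 1.5 times, except the oligodendrocyte covariate in the joint fit, added after seeing the data. With it 24 members differed between PVN and NTS and 22 between ARC and NTS in vehicle libraries, and 24 between PVN and NTS with IP118/PY115, where all genes gave 43%, 37.3% and 43.1%. It turned the sign of these called differences: for vehicle PVN against NTS, Cacna1d (-0.13), Hcn2 (0.18), Scn4b (1.78), Scn8a (0.42) and Trpm2 (0.10); for vehicle ARC against NTS, Cacnb4 (0.16), Hcn2 (0.31), Scn1a (0.0865), Scn4b (1.83) and Scn8a (0.35); for PVN against NTS with IP118/PY115, Cacng3 (0.01), Hcn2 (0.13), Scn2a (-0.03), Scn4b (1.63), Scn8a (0.22) and Trpa1 (0.27); for ARC against NTS with IP118/PY115, Hcn2 (0.19), Scn1a (0.15), Scn4b (1.04), Scn8a (0.26) and Trpm2 (0.03); for PVN against ARC with IP118/PY115, Scn4b (0.59). The difference of the Scn4b treatment effects of ARC and NTS was 2.46 with all libraries and -0.14 without ARC IP118/PY115 replicate 2, also chosen after seeing the data. Why these values moved was not tested. Depth limits members near 1 CPM, such as Trpa1.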
